A study of Mus musculus with 8 samples.

Results

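The mitochondrial ribosomal proteins are the protein components of the ribosome inside mitochondria, named Mrpl for the large subunit and Mrps for the small subunit. Their genes were found here by their symbols: a probe set was taken if its single gene symbol began with Mrpl or Mrps followed by a digit. This gave 156 of the 45101 probe sets on the array and 76 genes. All 76 genes were bright enough to be tested among 11232 genes. A further 4 probe sets whose annotation names several genes were left out. Of the 156 probe sets, 122 passed the filter on dim probe sets and 34 did not. Each gene was read from its brightest passing probe set, and 31 genes had more than 1.

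The arrays measured RNA from epididymal fat, a visceral depot next to the epididymis, of 8 male C57BL/6J mice bought at 6 weeks of age, 1 array per mouse and 2 mice per group. No transgene or deletion was used, and the strain and sex were shared by all groups. HFD+Tel mice ate a high-fat diet with 30% of calories from fat for 24 weeks and then drank telmisartan at about 3 mg/kg/day for 5 weeks. HFD+Can mice had the same diet and then candesartan at the same dose and for the same time. HFD mice had the same diet and the same 5 weeks with no drug. Chow mice ate a control diet with 10% of calories from fat for 24 weeks. The sources used here give no further 5 weeks for the chow mice, so whether they were kept as long is not known. Both drugs block the angiotensin II type 1 receptor. Both carry a benzimidazole ring and a biphenyl group, and telmisartan has a carboxylic acid on the biphenyl where candesartan has a tetrazole. The study asked how telmisartan acts on insulin resistance and on adipose tissue macrophages. The arrays are of whole tissue, in which fewer cells of a type and less RNA per cell cannot be told apart.

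The mitochondrial ribosome translates the few proteins that the mitochondrial genome encodes, which are core subunits of the respiratory chain and of ATP synthase. All of its proteins are encoded in the nucleus, made in the cytosol and imported. Some descend from bacterial ribosomal proteins and others occur only in mitochondria. In white fat, mitochondria supply the energy and the carbon precursors for fatty acid synthesis and re-esterification. By textbook structure, 49 of the 76 genes encode proteins of the large subunit. These include Mrps30 and Mrps18a, which were named for the small subunit and sit in the large one. Another 26 encode small subunit proteins. Mrps36 is placed in neither, since its product is now known as a component of the alpha-ketoglutarate dehydrogenase complex.

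The tissue label was checked against marker genes. Adipoq, the adipocyte hormone adiponectin, had a scaled signal of 15423 to 18324 on every array, and 0 of 8 testis and epididymis markers passed the filter. Of 12 general macrophage markers, 11 were tested and all 11 rose in HFD against chow, with a median log2 difference of 1.88. Adgre1, which encodes the macrophage antigen F4/80, had a signal of 1743 and 3503 on the HFD+Tel arrays, 2172 and 2935 on the HFD+Can arrays, 2629 and 2632 on the HFD arrays, and 620.3 and 660.0 on the chow arrays. Of 10 adipocyte markers tested, 0 rose and 2 fell in HFD against chow, with a median of -0.27. Of 8 endothelial markers, 4 fell. Over all genes tested, 2.95% fell and 5.15% rose in HFD against chow. The mesothelial markers were low on HFD+Tel 1 (median deviation -1.77) against -0.32 to 0.56 on the other arrays. For 5 brown adipocyte markers the median deviation was 0.31 and -0.27 on the HFD+Tel arrays and 0.03 and 0.28 on the HFD+Can arrays. It was 0.09 and -0.39 on the HFD arrays and 0.89 and -0.05 on the chow arrays. The 1 skeletal muscle marker tested had 0.70 and 0.06 on the HFD+Tel arrays and 0.14 and -0.64 on the HFD+Can arrays. It had -0.37 and -0.58 on the HFD arrays and 0.37 and 0.32 on the chow arrays.

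Before any group comparison, 2 arrays stood apart for the mitochondrial ribosomal protein genes. Each gene's log2 signal was taken as a deviation from its own mean over the 8 arrays, and the median over the 76 genes was read on each array. It was 0.25 and -0.04 on the HFD+Tel arrays, -0.02 and -0.08 on the HFD+Can arrays, -0.12 and -0.19 on the HFD arrays, and 0.25 and -0.01 on the chow arrays. HFD+Tel 1 and chow 1 were thus high and the other 6 arrays lay at or below 0. Of the 76 genes, 33 were highest on HFD+Tel 1 and 36 on chow 1, while 40 were lowest on HFD 2. Over all genes tested, 15.1% were highest on HFD+Tel 1, 20.5% on chow 1, and 9.99% were lowest on HFD 2. Replicate 1 exceeded replicate 2 by 0.29 in the HFD+Tel group and by 0.26 in the chow group, against 0.06 in the HFD+Can group and 0.07 in the HFD group. In those 2 groups the gap between mice was therefore about as large as the group differences in medians given below. Replicate 1 was thus the higher in every group. No source pairs replicates of different groups, and whether arrays with the same number shared a batch was not tested.

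**Figure D1:**
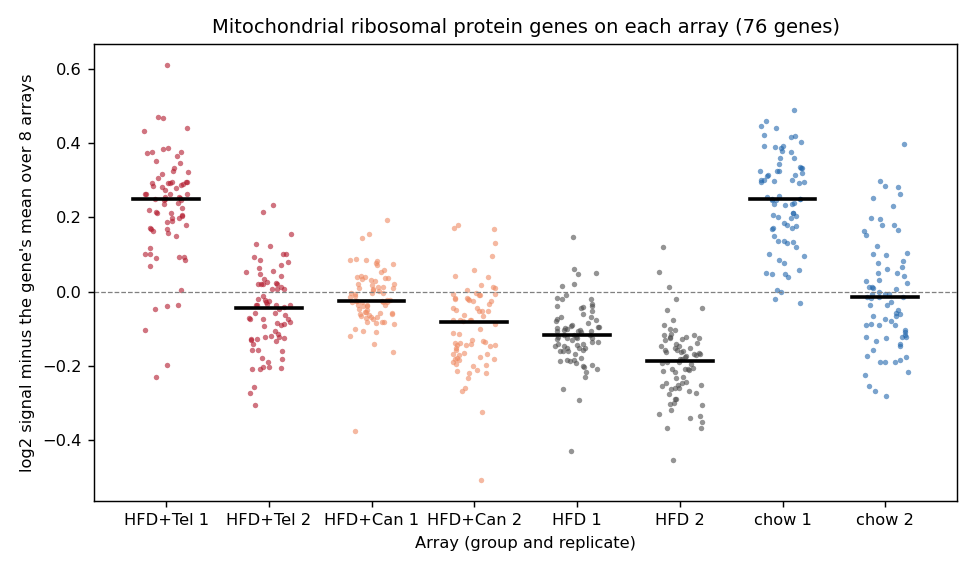
Log2 signal minus the gene's mean over 8 arrays (y axis) for the 76 mitochondrial ribosomal protein genes on each array (x axis); points are genes and black lines are medians. The medians are 0.25 on HFD+Tel 1 and on chow 1, and between -0.19 and -0.01 on the other arrays.

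The genes varied together across the arrays. Between pairs of the 76 genes, the correlation of log2 signals over the 8 arrays had a median of 0.72, with quartiles of 0.51 and 0.84, and 95% of the 2850 pairs were above 0. These points share arrays and groups, so the value is a description. The median deviation on HFD+Tel 1 was 0.25 for large subunit genes and 0.25 for small subunit genes, and on chow 1 it was 0.25 and 0.22. The subunits of the respiratory chain and ATP synthase had a like profile, at 0.21 and -0.05 on the HFD+Tel arrays and 0.32 and 0.03 on the chow arrays. For the cytosolic ribosomal proteins, which build the ribosome outside mitochondria, the median was 0.17 and 0.13 on the HFD+Tel arrays and -0.09 and -0.16 on the chow arrays.

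**Figure D2:**
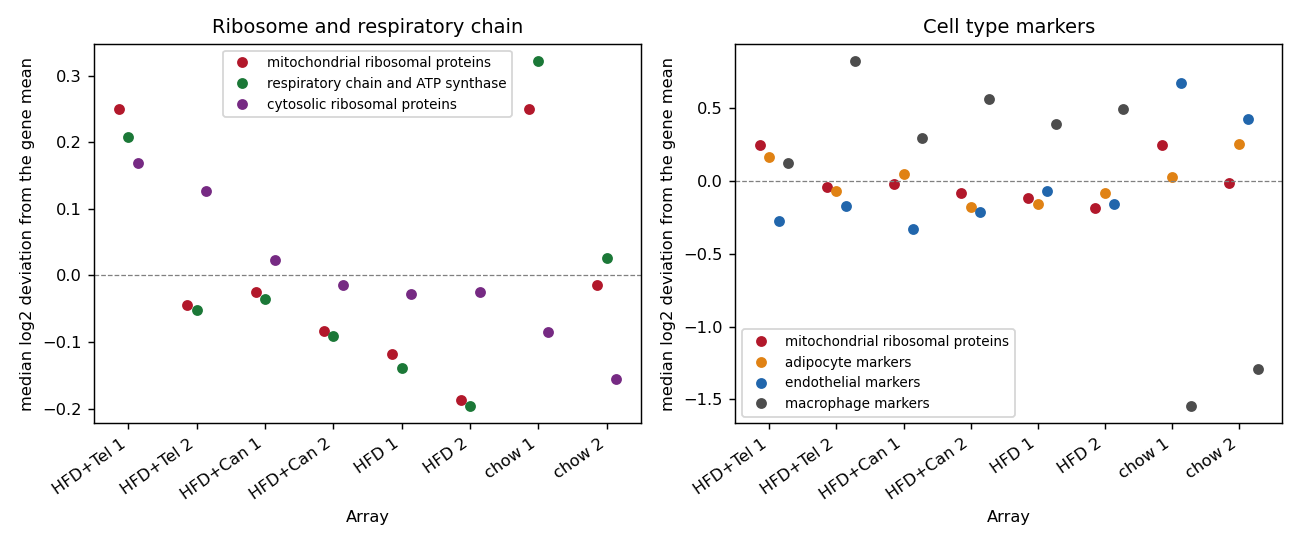
Median log2 deviation from the gene mean (y axis) on each array (x axis) for the gene lists named in the legends; each point is 1 list on 1 array. The mitochondrial ribosomal proteins and the respiratory chain subunits are high on HFD+Tel 1 and chow 1, while the macrophage markers are lowest on the chow arrays.

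HFD against chow asked what the fat diet did. Most mitochondrial ribosomal protein genes had a lower mean signal in HFD fat than in chow fat, and 1 of the 76 passed the test. That gene was Mrps15, a small subunit protein with a bacterial homologue. The test was limma's moderated test with Benjamini-Hochberg adjustment over all 11232 genes, two-sided, called at an adjusted p under 0.05. By it 1 member fell and 0 rose, and over all genes tested 2.95% fell and 5.15% rose. The share of members that fell is thus no higher than the background. Their directions were more uneven than those of all genes: 73 of 76 log2 differences were below 0, against 51.5% of all genes, and the median was -0.29 against -0.01 for all genes. Both HFD arrays lay below both chow arrays for 51 of 76 members, against 30.3% of all genes, and above both for 1 member (Mrps23), against 27.8%. An unadjusted p under 0.05 was reached by 21 members in the lower direction, against 12.3% of all genes, and by 0 members in the higher direction, against 11.9%. The median 95% confidence interval of a member reached 0.37 to each side. The members share arrays and are not separate measurements of the diet: without chow 1 the median was -0.15 with 56 of 76 below 0, and without chow 2 it was -0.42 with 75 of 76 below 0.

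Mrps15 had a signal of 699.8 and 623 on the HFD arrays, against 1070.1 and 1003 on the chow arrays. Neither HFD array reached either chow array. The mean was 661 ± 54.6 in HFD fat and 1036 ± 47.6 in chow fat (SD, n = 2 each), and the log2 difference was -0.65 (95% confidence interval -1.02 to -0.28, limma adjusted p = 0.0438). Its signal was 812 and 616 on the HFD+Tel arrays and 717 and 673 on the HFD+Can arrays, all below the chow arrays. A second Mrps15 probe set gave -0.65. When every probe set was tested, the second one passed (limma adjusted p = 0.0453) and the first did not (limma adjusted p = 0.0513). The call lies close to the threshold: leaving out any 1 array of the chow, HFD or HFD+Can groups lost it, as did centring arrays on the median, dropping the filter, or dropping the intensity trend, and the adjusted p ranged over 0.0111 to 0.285 across the alternatives.

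**Figure D3:**
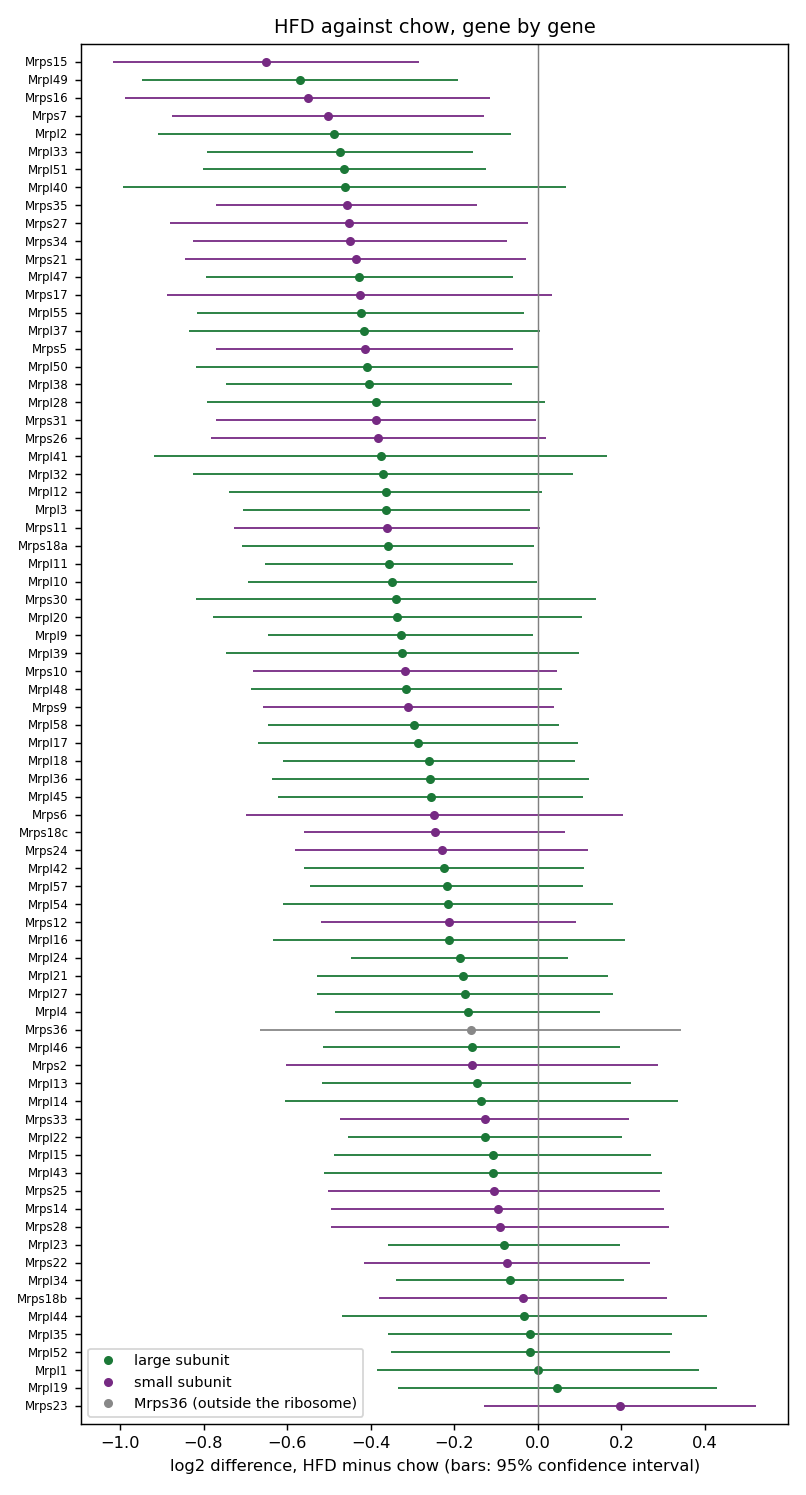
Log2 difference, HFD minus chow (x axis; bars are 95% confidence intervals), for each of the 76 genes (y axis), coloured by the subunit that holds the protein. All but 3 points lie below 0, and Mrps15 has the lowest value at -0.65.

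The next genes by p did not pass. Mrpl49, a large subunit protein found only in mitochondria, had a signal of 379 and 376 on the HFD arrays, against 608 and 514 on the chow arrays. Its log2 difference was -0.57 (limma adjusted p = 0.0747), and the groups did not overlap. Mrpl33, a small large-subunit protein with a bacterial homologue, had a signal of 329 and 302 on the HFD arrays, against 443 and 432 on the chow arrays (log2 difference -0.47, limma adjusted p = 0.0769). It is the member whose chow arrays stood closest together among these. Mrps15, Mrpl49, Mrpl33, Mrpl51, Mrpl2, Mrps34 and Mrps7 were called lower when either HFD+Tel array was left out of the fit, which makes 7 in place of 1. Mrpl2, Mrps34 and Mrps7 are named here after their values were seen.

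Only 3 members had a higher mean in HFD fat, and none of these passed. Mrps23, a small subunit protein found only in mitochondria, had a signal of 546 and 572 on the HFD arrays, against 516 and 462 on the chow arrays (log2 difference 0.20, limma adjusted p = 0.445). A second passing probe set of Mrps23 gave -0.36, so its direction is not settled between probe sets. Mrpl19 had 341 and 278 on the HFD arrays, against 329 and 269.8 on the chow arrays, and Mrpl1 had 147 and 133 against 145 and 134. Both are large subunit proteins with bacterial homologues, their groups overlapped, and their sign turned under several alternatives.

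Other members were given for their roles. Mrpl12, the protein of the ribosomal stalk that also binds the mitochondrial RNA polymerase, had a signal of 1069 and 942 on the HFD arrays, against 1491 and 1118 on the chow arrays (log2 difference -0.36, limma adjusted p = 0.22). Mrpl10, which anchors the stalk, had 832 and 838 on the HFD arrays, against 1187 and 951 on the chow arrays (-0.35, limma adjusted p = 0.204). For Mrpl3, a core protein near the peptidyl transferase centre, the HFD arrays read 556 and 566 and the chow arrays 816 and 638 (-0.36, limma adjusted p = 0.184). In all of these the chow mice differed from each other by about as much as the groups did. Another Mrpl3 probe set gave -0.71 and passed over probe sets (limma adjusted p = 0.0417).

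Mrps16, whose loss causes a mitochondrial translation disorder in humans, had a signal of 705 and 794 on the HFD arrays, against 1289.7 and 932 on the chow arrays (-0.55, limma adjusted p = 0.12). Mrps22, also a human disease gene, had 697 and 675 on the HFD arrays, against 792 and 658 on the chow arrays (-0.07). The groups overlapped for Mrps22 and not for Mrps16. The paralogues Mrps18a, Mrps18b and Mrps18c, which are related in sequence to the same bacterial protein, had log2 differences of -0.36, -0.04 and -0.25, and none passed. Mrps30 had -0.34, and Mrps36, which is outside the ribosome, had -0.16 with overlapping groups.

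By structural class, the median HFD minus chow difference was -0.29 over 49 large subunit genes and -0.31 over 26 small subunit genes. The genes were also split by whether the protein has a bacterial counterpart at its place in the ribosome, by which Mrps18c counts as having one and Mrps18a and Mrps18b do not. The median was -0.26 over 45 genes with such a counterpart and -0.32 over 30 without. Each class had at most 2 members above 0. No class stood apart in these medians, and no test between classes was made. The probe sets that were not used for a gene are a further reading of the same RNA: of 46 such passing probe sets, 35 were below 0 with a median of -0.20. Among the 31 genes with more than 1 passing probe set, 20 had the same sign in all of them. In the other comparisons this number was 20 for HFD+Tel against HFD, HFD+Can against HFD and HFD+Tel against chow. It was 16 for HFD+Tel against HFD+Can and 17 for HFD+Can against chow. Mrpl28, chosen after its values were seen, had probe sets at -0.39, -0.53 and 0.63.

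The promoter windows of the members were searched for short motifs, since the nuclear genes of mitochondria are known targets of a few transcription factors. Windows of 250 bases before to 50 after the gene start (RefSeq, GRCm38.p6) matched 67 of the 76 genes. The letters CCGGAAG, a site of the ETS family to which GABP belongs, were found on either strand in 25 of 67 (37.3%). They were in 20.2% of the 9080 tested genes with a window and in 8.86% of all windows. Here and for the other motifs, the shares of members and tested genes count genes with a match in any window. The share of all windows counts windows. Counted by gene, CCGGAAG was in 9.93% of all genes with a window. AAGATGG, a YY1 site, was in 13 of 67 (19.4%), against 8.4% of tested genes and 6.34% of all windows. The NRF1 consensus was in 3 (4.5%), against 2.4% of tested genes and 0.97% of all windows. AAGGTCA, a site of the oestrogen-related receptors, was in 4 (6.0%), against 3.8% of tested genes and 4.72% of all windows. The E-box CACGTG was in 5 (7.5%), against 11.9% of tested genes and 7.15% of all windows. Such matches describe letters and do not show binding.

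The 150 bases just before the start are shown for 3 members, picked as examples after their values were seen. Mrps15 is the gene called in HFD fat (chr4:126046778-126046927, plus strand). Mrpl51 passed beside it when only the HFD and chow arrays were fitted (chr6:125192050-125192199, plus strand). Mrpl34 had the smallest p for telmisartan and did not pass (chr8:71464776-71464925, plus strand). Mrpl49 and Mrpl33, next by p in HFD against chow, are not shown. Capitals mark AAGGTCA in Mrps15 and CCGGAAG in Mrpl51 and Mrpl34.
Mrps15: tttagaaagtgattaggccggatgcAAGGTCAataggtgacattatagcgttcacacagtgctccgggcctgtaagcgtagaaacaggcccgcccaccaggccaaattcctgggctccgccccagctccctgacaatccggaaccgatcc
Mrpl51: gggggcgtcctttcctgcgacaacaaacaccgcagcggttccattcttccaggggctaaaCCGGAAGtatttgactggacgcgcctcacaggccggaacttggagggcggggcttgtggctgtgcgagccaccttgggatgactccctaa
Mrpl34: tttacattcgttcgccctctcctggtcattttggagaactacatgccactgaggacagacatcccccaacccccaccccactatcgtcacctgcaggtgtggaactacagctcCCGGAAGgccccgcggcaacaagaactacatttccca
The match begins 125 bases before the start in Mrps15, 90 in Mrpl51 and 37 in Mrpl34. Of the pair with the ETS letters, Mrpl51 had a log2 difference of -0.46 and Mrpl34 of -0.07 in HFD against chow, and the gap between them was not tested.

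Other genes of mitochondrial translation were set beside the members in HFD against chow. Over all genes tested, 2.95% fell and 5.15% rose. Of 13 translation factors tested, 0 rose and 1 fell, with a median of -0.14. The one that fell was Mtfmt, the formyltransferase that makes the initiator formyl-methionyl-tRNA, with a signal of 128 and 119.7 on the HFD arrays, against 208 and 188 on the chow arrays (log2 difference -0.68, limma adjusted p = 0.0438). Of 17 aminoacyl-tRNA synthetases and related enzymes, 0 rose and 1 fell, with a median of -0.30. This was Gatb, a subunit of the amidotransferase that makes glutaminyl-tRNA in mitochondria, with 128 and 172 on the HFD arrays, against 455 and 344 on the chow arrays (-1.41, limma adjusted p = 0.0408). Leaving out any 1 array of the chow, HFD or HFD+Can groups lost both calls; the adjusted p rose as high as 0.261 for Mtfmt, which lost its call in 11 of 20 alternatives, and 0.243 for Gatb, in 8 of 21. Tufm, the mitochondrial elongation factor Tu, had 337 on both HFD arrays, against 606 and 456 on the chow arrays, and missed the threshold (-0.64, limma adjusted p = 0.0503). For the 24 assembly factors the median was -0.17, and for 17 genes of mitochondrial DNA transcription and RNA handling it was -0.15; none of either list passed.

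Dap3, a small subunit protein outside the symbol rule that binds GTP, had a log2 difference of -0.21 (limma adjusted p = 0.48). Among the regulators, Tfam, which packages mitochondrial DNA and takes part in its transcription, had -0.13. Polrmt, the mitochondrial RNA polymerase, had -0.37, and Lrpprc, which stabilises mitochondrial messenger RNA, had 0.26. Ppargc1a, the coactivator of mitochondrial gene programmes, had a low signal of 59.9 and 39.9 on the HFD arrays, against 46.2 and 64 on the chow arrays (-0.15). Esrra, an oestrogen-related receptor that acts with it, had -0.24. None of these 6 genes passed the test.

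The respiratory chain and ATP synthase, whose mitochondrially encoded parts this ribosome makes, had mostly lower means as well. Of 72 nuclear-encoded subunits tested, 4 fell and 1 rose, against 2.95% and 5.15% of all genes. Of the 72, 70 were below 0, against 51.5% of all genes, and the median was -0.32. Uqcrfs1, the Rieske protein of complex III, fell by 0.72 on the log2 scale. The complex I subunits Ndufv1 and Ndufs3 fell by 0.63 and 0.56. Ndufb1, another complex I subunit, rose by 0.77. The limma adjusted p was 0.0475 for Uqcrfs1, 0.0385 for Ndufv1, 0.0491 for Ndufs3 and 0.0344 for Ndufb1. Each of these calls was lost in 10 to 12 of 21 alternatives, among them leaving out chow 1, either HFD array or either HFD+Can array, and also chow 2 except for Uqcrfs1. The cytosolic ribosomal proteins had mostly higher means, with 35 of 46 tested above 0, against 48.5% of all genes. Their median was 0.10, and 0 passed in either direction. The macrophage, adipocyte and endothelial markers moved in this comparison as given above. The 1 skeletal muscle marker tested had a log2 difference of -0.82 and did not pass. The 5 brown adipocyte markers had a median of -0.15, with 2 above 0 and 3 below, and 0 passed. The part of all these markers in these differences was not tested.

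**Figure D4:**
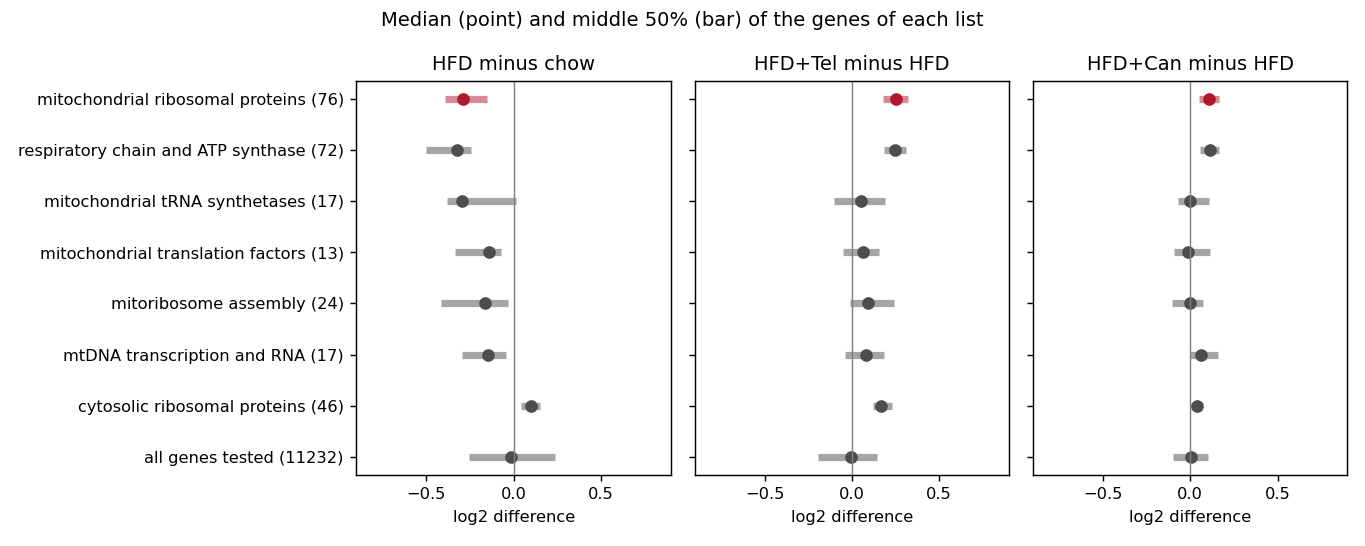
Median log2 difference (points) with the interquartile range over genes (bars) for each gene list (y axis) in the comparisons shown. In HFD against chow the mitochondrial ribosomal proteins (-0.29) and the respiratory chain subunits (-0.32) lie below 0 and the cytosolic ribosomal proteins (0.10) above it.

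HFD+Tel against HFD asked what telmisartan did on the fat diet. No member passed the test (0 higher and 0 lower by limma), and neither did any of the 11232 genes, of which 0% were called in each direction; the smallest adjusted p was 0.766. The log2 differences of the members were mostly above 0, in 74 of 76 against 48.5% of all genes, with a median of 0.25. Both HFD+Tel arrays lay above both HFD arrays for 45 members, against 18.5% of all genes, and below both for 1 member, against 19.5%. An unadjusted p under 0.05 was reached by 8 members in the higher direction, against 2.28% of all genes, and by 0 in the lower, against 3.92%. This comparison uses the same 2 HFD arrays as HFD against chow. The median without HFD+Tel 1 was 0.11 with 61 of 76 above 0, and without HFD+Tel 2 it was 0.38. Under centring on the array median it was 0.52, where the median of all genes moved to 0.26.

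Mrpl34, a large subunit protein with a bacterial homologue, had the smallest p. Its signal was 1239 and 1206 on the HFD+Tel arrays, 989 and 1031 on the HFD+Can arrays, 942 and 954 on the HFD arrays, and 1042 and 946 on the chow arrays. Both HFD+Tel arrays were above all other arrays. The log2 difference from HFD was 0.37 (95% confidence interval 0.09 to 0.64, limma unadjusted p = 0.0143, adjusted p = 0.766). Mrps24, a small subunit protein, had 1227 and 960.2 on the HFD+Tel arrays, against 774 and 801 on the HFD arrays (0.46, limma adjusted p = 0.766). Mrps16 had 1233 and 993 on the HFD+Tel arrays, against 705 and 794 on the HFD arrays (0.56, limma adjusted p = 0.766). The chow arrays of Mrps16, at 1289.7 and 932, held the same range as the HFD+Tel arrays.

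Mrpl12 had a log2 difference of 0.46, with 1474 and 1289 on the HFD+Tel arrays against 1069 and 942 on the HFD arrays. Mrps18a, Mrps18b and Mrps18c had 0.36, 0.31 and 0.25, and Mrps22, Mrps30 and Mrpl10 had 0.27, 0.26 and 0.23. Mrpl3 and Mrps36 lay at 0.05 and 0.07. All of these had limma adjusted p of 0.766 or more. The 2 members below 0 were Mrpl1 (-0.13) and Mrpl19 (-0.08), and their sign turned under centring on the array median. The respiratory chain subunits had a median of 0.24 and the cytosolic ribosomal proteins 0.16, with 0 called in each. The medians of the translation factors and of the synthetases were 0.06 and 0.05. The macrophage markers lay at 0.12 and 0.82 on the HFD+Tel arrays and 0.39 and 0.50 on the HFD arrays. The median difference of the macrophage markers was -0.0011. Of 6 mesothelial markers 0 passed, but all 6 were below 0 with a median of -1.13, and their median deviation was -1.77 and 0.14 on the HFD+Tel arrays and 0.06 and 0.56 on the HFD arrays. The 10 adipocyte markers were all above 0 with a median of 0.16, and 0 passed. HFD+Tel 1, where the members were high, was thus the array with the low mesothelial value. On chow 1, where the median of the members was also 0.25, the mesothelial median deviation was 0.46. The 1 skeletal muscle marker tested had a log2 difference of 0.86 and did not pass. The 5 brown adipocyte markers had a median of 0.41, with 3 above 0 and 2 below, and 0 passed. The part of all these markers in the result was not tested.

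**Figure D5:**
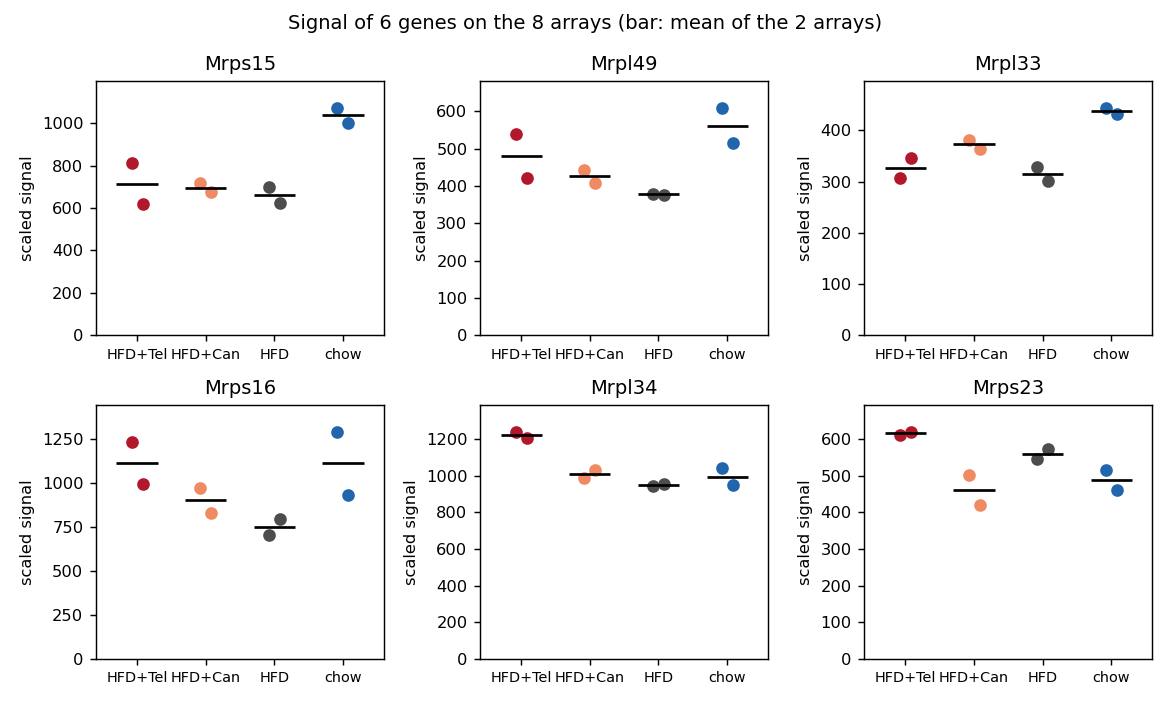
Scaled signal (y axis, from 0) of 6 members by group (x axis); points are arrays and black lines are group means. Mrps15 is higher on both chow arrays than on the other 6 arrays, and Mrpl34 is highest on the HFD+Tel arrays.

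HFD+Can against HFD asked the same of candesartan. Again 0 members and 0% of all genes passed by limma, and the smallest adjusted p was 1. The median of the members was 0.11, with 66 of 76 above 0 against 51.1% of all genes. Without HFD 2 it was 0.07 with 55 of 76 above 0, and without HFD+Can 1 it was 0.08 with 52 of 76. Under centring on the array median it was 0.26, where the median of all genes moved to 0.16. Both HFD+Can arrays lay above both HFD arrays for 40 members, against 17.9% of all genes, and below both for 2, against 15.5%. An unadjusted p under 0.05 was reached by 0 members in either direction, against 0.481% of all genes in the higher and 0.766% in the lower. Mrpl54, a large subunit protein found only in mitochondria, had 494 and 527 on the HFD+Can arrays, against 407 and 396 on the HFD arrays (log2 difference 0.35). The other members with the smallest p were Mrpl47 (0.31) and Mrpl33 (0.24) above 0, and Mrps23 (-0.28), Mrps5 (-0.15) and Mrps30 (-0.14) below 0. The sign of Mrps5 and Mrps30 turned under centring on the array median, and that of Mrps23 under the mean of its probe sets. The respiratory chain subunits had a median of 0.11 and the cytosolic ribosomal proteins 0.04.

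The drugs were compared directly at the same dose and time, as the only pair of compounds. HFD+Tel against HFD+Can gave 0 called members by limma and 0% of all genes, and the smallest adjusted p among the members was 0.924. The median of the members was 0.15, with 66 of 76 above 0 against 49% of all genes. Of the 46 passing probe sets not used for a gene, 28 were above 0 and 18 below, with a median of 0.078. Both HFD+Tel arrays lay above both HFD+Can arrays for 27 members, against 15.6% of all genes, and below both for 3, against 16.6%. An unadjusted p under 0.05 was reached by 3 members in the higher direction, against 1.5% of all genes, and by 0 in the lower, against 3.39%. Mrps23 had 612 and 619.9 on the HFD+Tel arrays, against 501 and 421 on the HFD+Can arrays, a log2 difference of 0.42 (95% confidence interval 0.10 to 0.75, limma unadjusted p = 0.017, adjusted p = 0.924). Under the mean of its probe sets the Mrps23 difference was -0.05. Mrps5, with a mean signal of 210.0 ± 2.94 in HFD+Tel fat and 162 ± 16.7 in HFD+Can fat (SD, n = 2 each), had 0.38 (interval 0.03 to 0.73). For Mrpl34 it was 0.28, and its HFD+Tel arrays did not overlap with the HFD+Can arrays. The lower members with the smallest p were Mrpl1 (-0.30), Mrpl19 (-0.21) and Mrpl33 (-0.20). The direction of the median rested on 1 array: without HFD+Tel 1 it was -0.011 with 34 of 76 above 0, and without HFD+Tel 2 it was 0.33. Under centring on the array median it was 0.27, where the median of all genes moved to 0.11. The median 95% confidence interval of a member reached 0.37 to each side, so 0 calls do not show that the compounds act alike. The 6 mesothelial markers were all below 0 here, with a median of -0.97, and their part in the result was not tested.

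Against chow, the drug groups were set beside HFD. In HFD+Tel against chow 0 members passed by limma, against 4.96% of all genes higher and 3.48% lower, and the median was -0.04 with 36 of 76 above 0 and 40 below, against 46.5% and 53.5% of all genes. Both HFD+Tel arrays lay above both chow arrays for 4 members, against 22.4% of all genes, and below both for 14, against 25.2%. An unadjusted p under 0.05 was reached by 2 members in the higher direction, against 12.1% of all genes, and by 3 in the lower, against 12.5%. Without chow 1 the median was 0.13, without HFD+Tel 1 it was -0.16 and 3 members were called lower, and without HFD+Tel 2 it was 0.12. Under centring on the array median it was 0.13 with 59 of 76 above 0, where the median of all genes moved to 0.14. Mrps15 had the smallest p below 0 (log2 difference -0.55, limma adjusted p = 0.0712), followed by Mrpl33 (-0.43) and Mrpl9 (-0.32). Above 0 stood Mrps23 (0.34), Mrpl34 (0.30) and Mrps18b (0.27). Among the cytosolic ribosomal proteins 7 of 46 rose, with a median of 0.28, and Rps25, Rps18 and Rpl35 had 0.65, 0.46 and 0.40. These 3 calls were lost in 10, 8 and 12 of 21 alternatives. Of 11 macrophage markers tested, 11 rose in HFD+Tel against chow, and of 8 endothelial markers 5 fell. Of 10 adipocyte markers 0 rose and 1 fell. The 6 mesothelial markers were all below 0 with a median of -1.16, and 0 passed. The part of these markers in the result was not tested.

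In HFD+Can against chow 0 members passed by limma, against 4.48% of all genes higher and 2.11% lower. The median was -0.17, with 64 of 76 below 0 and 12 above, against 52.3% and 47.7% of all genes, and it was -0.04 with 44 of 76 below 0 without chow 1, and -0.31 without chow 2. Both HFD+Can arrays lay below both chow arrays for 32 members, against 28% of all genes, and above both for 2, against 25.8%. An unadjusted p under 0.05 was reached by 8 members in the lower direction, against 10.2% of all genes, and by 0 in the higher, against 11.1%. Mrps15 (-0.58, limma adjusted p = 0.0733) and Mrps5 (-0.56, limma adjusted p = 0.0727) came closest to passing, followed by Mrpl51, with 1988 and 1798 on the HFD+Can arrays against 2531 and 2539 on the chow arrays (-0.42). The members above 0 with the smallest p were Mrpl1 and Mrpl19 (0.17 each) and Mrpl54 (0.13). Mtfmt and Gatb fell in HFD+Tel fat against chow (-0.72 and -1.57), and Gatb fell in HFD+Can fat (-1.81). These calls were lost in 12 of 20, 8 of 21 and 4 of 21 alternatives, in that order. Mtfmt in HFD+Can fat did not pass (-0.53, limma adjusted p = 0.105). These 3 comparisons share the chow arrays. In HFD+Can against chow, 10 of 11 macrophage markers tested rose and 5 of 8 endothelial markers fell. Of 10 adipocyte markers 0 rose and 1 fell. The 6 mesothelial markers were all below 0 with a median of -0.21, and 0 passed. The part of these markers in the result was not tested.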

How the data were processed

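Total RNA of epididymal fat from 8 mice was hybridized to Mouse Genome 430 2.0 arrays (per the labels' protocols). The deposited table holds 1 intensity on a linear scale for each probe set and array, which the authors obtained from the GeneChip Analysis Suite (per the series design text); the sources used here give neither its version nor its scaling. Because 2%-trimmed means differed by as much as 1.48 times, every array was first brought to the same one. A floor of 6.695 (the 20th percentile) was then applied before log2, and 22519 probe sets in the upper part by mean log2 signal (from the 50th percentile up) were retained. The brightest probe set of each gene was used, which left 11232 genes. Groups came from the sample titles.

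Tests used limma 3.58.1 (R 4.3.3) with 4 group means, an intensity trend and 4 residual degrees of freedom, two-sided, with Benjamini-Hochberg adjustment. The script was tested on simulated data, where the condition on calls covered only the larger of the simulated differences. It does not show that differences as small as the medians of the members would be called. An exact permutation test of 2 arrays against 2 allows no p below 0.333. The 2 arrays per group limit the precision, and no source states a batch. Each array is 1 mouse. The named genes were those called (up to 12 per direction), otherwise the 3 with the smallest p per direction, and a fixed set of members chosen for their roles. The members and lists were chosen with earlier results of these data known, and the subunit classes were written after the data were seen. Figures were drawn with matplotlib 3.10.9.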

Additional observations from a re-analysis of the deposited data

How the results depend on the processing

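Over 21 alternatives, no member was called higher in any comparison, and none was called between HFD+Tel, HFD+Can and HFD. In HFD against chow, 0 members were called lower under median centring, with no filter and with no intensity trend. With only the arrays of the groups compared 2 were called, and 2 with every probe set tested. Leaving out 1 array gave 0 to 7, and leaving out chow 1 and HFD+Tel 1 together, an alternative chosen after seeing the data, gave 2. Over all genes tested, replicate differences correlated between groups at -0.0414 to 0.206. Such values cannot settle whether arrays with the same number shared a batch. The replicate block gave 2 called lower in HFD against chow, and 1 each in HFD+Tel against chow and HFD+Can against chow. In these last comparisons, 0 to 3 were called leaving out 1 array and 2 with both arrays out.

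The median difference of the members ranged, leaving out 1 array, over -0.42 to -0.15 in HFD against chow, 0.11 to 0.38 in HFD+Tel against HFD, 0.07 to 0.14 in HFD+Can against HFD, -0.011 to 0.33 in HFD+Tel against HFD+Can, -0.16 to 0.13 in HFD+Tel against chow and -0.31 to -0.04 in HFD+Can against chow. With both arrays out it was 0.11 in HFD+Tel against HFD and -0.011 in HFD+Tel against HFD+Can. Median centring gave 0.52 in HFD+Tel against HFD, 0.26 in HFD+Can against HFD, 0.27 in HFD+Tel against HFD+Can and 0.13 in HFD+Tel against chow. It shifted the median of all genes to -0.11, 0.26, 0.16, 0.11 and 0.14 in HFD against chow, HFD+Tel against HFD, HFD+Can against HFD, HFD+Tel against HFD+Can and HFD+Tel against chow.

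Of the values of named genes, 1388 kept direction and side of the threshold, 147 lost the call, 24 gained it and 30 turned sign. The lost calls all belong to genes called in the results above, and most named genes were not called there. The number of kept values therefore does not show that the calls were stable. In HFD against chow, Mrpl1 was -0.061 under quantile normalization, -0.10 under median centring and -0.054 under the mean of probe sets. Mrpl19 was -0.055 under median centring, and under the mean of probe sets Mrps23 was -0.082 and Tfam 0.082. Leaving out 1 array, the ranges there were -0.10 to 0.027 for Mrps18b, -0.45 to 0.12 for Mrps36, -0.21 to 0.061 for Mrps22, -0.10 to 0.19 for Mrpl19, -0.069 to 0.070 for Mrpl1 and -0.45 to 0.14 for Ppargc1a. With both arrays out, Mrps18b was 0.027, Mrps36 0.12 and Mrps22 0.061. In HFD+Tel against HFD, Mrpl1 was 0.032 under quantile normalization and 0.14 under median centring, Mrpl19 was 0.19 under median centring, and Mrps36 was -0.15 with both arrays out; leaving out 1 array, -0.23 to 0.066 for Mrpl19 and -0.15 to 0.30 for Mrps36. In HFD+Can against HFD, median centring gave 0.0070 for Mrps5 and 0.015 for Mrps30, the mean of probe sets gave 0.18 for Mrps23, and the range was -0.39 to 0.12 for Mrps30 leaving out 1 array. In HFD+Tel against HFD+Can, the mean of probe sets gave -0.048 for Mrps23. The cause of these changes was not tested. No depth can be read from intensities.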
